A study of Homo sapiens with 6 samples.

Results

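The genes described here encode developmental transcription factors of the SOX, FOX, POU, LHX, PAX, NEUROD, NEUROG, ASCL, HAND and DLX families. They were taken by symbol from the named probe sets of a microarray study, leaving out SOX11 and antisense, overlapping and pseudogene symbols. One probe set was kept for each gene, the one with the highest mean over the 6 arrays. This gave 112 genes of 14779 measured. Of these, 37 had a mean of 5 or above on the log2 intensity scale, and 75 were dim, with a mean below 5. The symbols of 5 genes share the letters but encode no DNA-binding factor of these families: FOXRED1, FOXRED2, FOXL2NB, POU2AF1 and POU2AF3. None of these 5 changed, and 107 genes remain without them. FOXRED2, the brightest of them, read 9.72, 9.83 and 9.63 in shGLDC99 arrays, against 9.80, 9.79 and 9.93 in shGFP arrays (log2 intensity). NEUROD1 and POU2F1 were not analysed here.

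The arrays compared 2 populations of LA1-55n, a human neuroblastoma cell line derived from the sympathetic lineage of the neural crest. In shGLDC99 cells doxycycline induced a short hairpin RNA against GLDC, the glycine decarboxylase of mitochondria (3 arrays, replicates a, b and c). In shGFP cells it induced a hairpin against GFP, a protein that human cells do not make (3 arrays, replicates a, b and c). Both populations carried the tet-on system, received 0.5 µg/ml doxycycline for 7 days and grew in RPMI medium with serum. A single hairpin against GLDC was used, and the labels do not say whether the populations were clonal, so effects of this hairpin or population on other transcripts cannot be told apart from those of GLDC loss. The samples are called independent, but separate cultures are not described, and the p-values therefore cover only the spread among these samples.

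SOX factors bind DNA through an HMG box, FOX factors through a forkhead domain, and LHX, DLX, PAX and POU factors through homeodomains or related domains. Proneural factors of the ASCL, NEUROG and NEUROD families, and the HAND factors, are basic helix-loop-helix proteins that pair with E proteins such as TCF3. In the sympathetic lineage HAND2 works with GATA3 to install the noradrenergic programme, while SOX10, FOXD3 and PAX3 belong to the neural crest and glial states. SOX4, SOX11 and SOX12 form the SOXC group of neuronal progenitors and of neuroblastoma.

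The hairpin's target was measured first. GLDC read 5.98, 5.65 and 5.93 in shGLDC99 arrays a, b and c, against 7.85, 7.90 and 7.81 in shGFP arrays a, b and c (log2 intensity). It fell by 2.00 ± 0.10 (SE, limma adjusted p = 0.00101). Over 31135 probe sets the correlation was 0.993 to 0.994 within a group and 0.988 to 0.990 between groups, and no array stood apart. Of 9 measured adrenergic neuroblastoma markers, 7 had a mean of 5 or above, among them HAND2, GATA3, PHOX2A and CHGA, while DBH and STMN2 were dim. The adrenergic list averaged 6.53 to 6.69 in shGLDC99 arrays and 6.60 to 6.73 in shGFP arrays. Within it CHGB rose by 0.41, ISL1 fell by 1.09 and GATA3 fell by 0.48. All 5 measured Schwann and glial markers were dim, averaging 3.57 to 3.91 in shGLDC99 arrays and 3.62 to 3.78 in shGFP arrays. Of 4 measured fibroblast and mesenchymal markers 1 rose, the dim gene LUM, by 0.52. PRRX1 (mean 7.24) and TWIST1 (mean 6.55) were brighter and DCN (mean 1.70) was dim, and none of them passed the threshold. The average of this list, 4.81 to 4.87 in shGLDC99 arrays and 4.71 to 4.81 in shGFP arrays, thus mixes bright and dim genes. The part of such cells in the results below was not tested.

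The factors that changed were mostly lower when GLDC was knocked down. Among the 37 genes with a mean of 5 or above, SOX4, FOXN3, FOXN4, FOXP1, FOXP4, FOXA1 and POU3F2 fell, and FOXD4 rose. Among the 75 dim genes, SOX5, FOXP2, DLX5 and FOXL2 fell, and SOX6 rose. The differences were modest: among the brighter genes they ran from -0.53 (FOXN4, 1.44-fold lower) to 0.35 (FOXD4, 1.28-fold higher). No gene of the LHX, PAX, HAND, ASCL, NEUROD or NEUROG families passed the threshold. All measured ASCL, NEUROD and NEUROG genes were dim, as were 7 of 8 PAX, 4 of 8 LHX and 1 of 2 HAND genes. Among all dim genes 2.79% changed.

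A gene is said to have risen or fallen where its limma adjusted p over all 14779 genes was under 0.05. By that rule 13 of 112 genes changed, 2 higher (1.79%) and 11 lower (9.82%). Over all genes 8.52% changed, 3.72% higher and 4.8% lower. Among the 37 brighter genes 8 changed, 1 higher and 7 lower (18.9%), and among all 7587 genes of that brightness 13.9% changed, 5.81% higher and 8.13% lower. Of the 75 dim genes 5 changed, against 2.79% of all 7192 dim genes. The median difference was -0.07 over the 112 genes and -0.11 over the 37 brighter ones, beside -0.01 over all genes and -0.01 over all genes of that brightness. When each array was dropped in turn (shGLDC99 a, b or c, or shGFP a, b or c), 1 to 6 of the 112 genes fell and 0 rose, in fits with fewer samples. Among the 37 brighter genes 0 to 5 fell and 0 rose. Over all 14779 genes 238 to 327 fell and 207 to 240 rose in those fits. Groups did not overlap for 21 of the 37 brighter genes, against 46.2% of all genes of that brightness, and for 37 of all 112, against 30.8% of all genes. An exact two-sided permutation test on 3 against 3 arrays cannot go below p = 0.1, which it gave for each of the 13 changed genes.

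**Figure D1:**
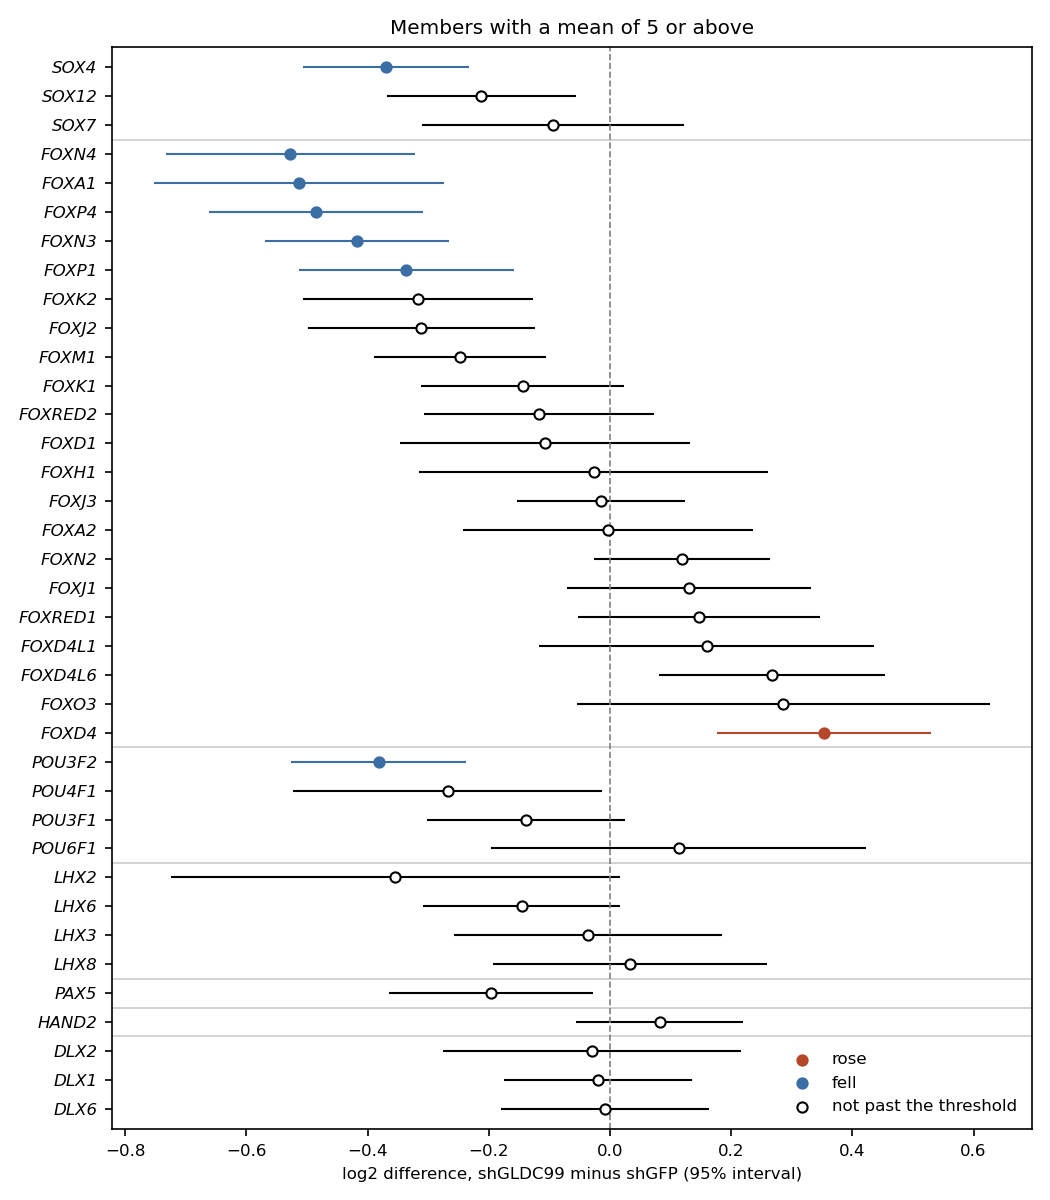
The 37 listed genes (FOXRED1 and FOXRED2 among them) with a mean log2 intensity of 5 or above, grouped by family, with the log2 difference (shGLDC99 minus shGFP) on the x axis and its 95% interval from the limma model as a bar. Filled points passed an adjusted p of 0.05: 7 fell, 1 rose, and FOXN4 at -0.53 lies farthest to the left.

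**Figure D2:**
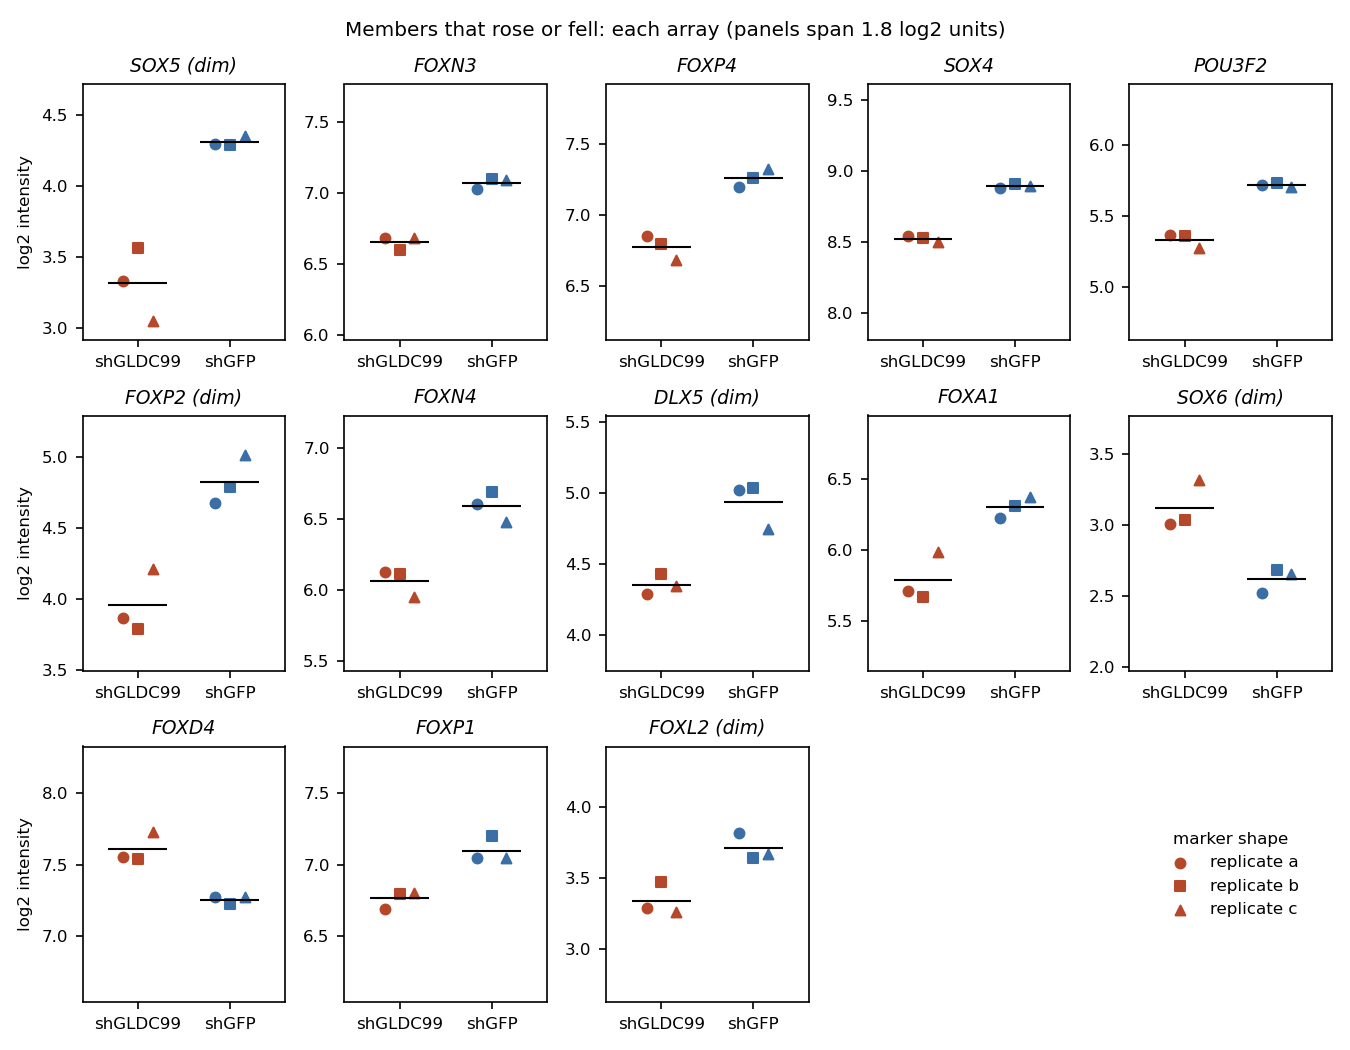
Log2 intensity of the 13 changed factors in each array, shGLDC99 on the left and shGFP on the right of each panel, with marker shapes for replicates a, b and c and a line at the group mean. Every panel spans the same range of log2 units, and in every panel the 3 shGLDC99 arrays lie wholly on 1 side of the 3 shGFP arrays.

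To show the DNA in front of the genes that the results turn on, 250 bases are given for 4 brighter changed genes. These are the 4 with the lowest adjusted p, and the bases lie before 1 annotated start of each. Where a gene had several annotated starts the first listed was used, also for the shares below, and other starts were not examined. They come from RefSeq on build GRCh38.p14 and read 5′ to 3′ on the gene's strand: FOXN3 at chr14:89619166-89619415 (minus strand), FOXP4 at chr6:41546131-41546380, SOX4 at chr6:21593501-21593750 and POU3F2 at chr6:98834324-98834573 (plus strand). Capitals mark any E-box (CANNTG) or CCAAT box (CCAAT, or ATTGG on the other strand), the motifs found there among 7 searched on both strands.
FOXN3: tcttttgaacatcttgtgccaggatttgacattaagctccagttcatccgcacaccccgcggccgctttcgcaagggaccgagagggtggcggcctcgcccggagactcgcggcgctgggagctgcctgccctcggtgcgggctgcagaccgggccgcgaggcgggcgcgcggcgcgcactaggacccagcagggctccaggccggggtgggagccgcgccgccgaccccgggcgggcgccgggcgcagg
FOXP4: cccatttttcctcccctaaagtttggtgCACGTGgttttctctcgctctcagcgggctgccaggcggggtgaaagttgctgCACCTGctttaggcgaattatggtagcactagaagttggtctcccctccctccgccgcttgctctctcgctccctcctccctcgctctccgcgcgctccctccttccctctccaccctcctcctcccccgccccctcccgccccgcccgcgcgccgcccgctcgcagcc
SOX4: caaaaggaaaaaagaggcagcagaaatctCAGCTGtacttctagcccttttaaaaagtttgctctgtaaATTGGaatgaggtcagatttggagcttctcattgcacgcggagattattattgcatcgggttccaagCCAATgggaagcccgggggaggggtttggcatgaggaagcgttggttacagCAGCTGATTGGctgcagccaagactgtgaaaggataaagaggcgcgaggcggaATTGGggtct
POU3F2: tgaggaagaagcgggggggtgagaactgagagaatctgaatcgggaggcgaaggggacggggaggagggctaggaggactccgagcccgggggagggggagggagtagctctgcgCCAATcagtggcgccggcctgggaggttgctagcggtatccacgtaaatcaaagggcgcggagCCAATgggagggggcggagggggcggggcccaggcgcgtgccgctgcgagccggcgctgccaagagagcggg
The SOX4 window held 2 E-boxes and 4 CCAAT boxes, 1 of each touching, the FOXP4 window 2 E-boxes and the POU3F2 window 2 CCAAT boxes, while the FOXN3 window held neither. The others searched were the SOX core ACAAT, the forkhead core GTAAACA, the POU octamer ATGCAAAT, the homeodomain core TAATTA and TTTCGCG, a core bound by E2F, and their letters do not occur in these 4 windows. Of the 112 genes 83 matched the RefSeq table. Of those 83, 42 held an E-box (50.6%) and 32 a CCAAT box (38.6%), against 62.2% and 33.0% of 27303 promoters. The SOX core stood in 17 of the 83 (20.5%) and in 25.2% of all promoters, the forkhead core in 1 of the 83 and in 2.98%, the octamer in 3 (3.61%) and 1.66%, TAATTA in 5 (6.02%) and 4.49%, and TTTCGCG in 0 and 1.14%. Whether transcription starts at these positions in LA1-55n was not tested.

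SOX4, whose promoter is shown above, is the SOXC factor of immature neurons. It read 8.54, 8.53 and 8.50 in shGLDC99 arrays a, b and c, against 8.88, 8.91 and 8.90 in shGFP arrays a, b and c. The arrays of each group were nearly alike and the groups did not overlap. SOX4 fell by 0.37 ± 0.058 (SE, adjusted p = 0.0145), or 1.29-fold lower, a larger absolute difference than 90.1% of all genes. SOX12, its SOXC relative, averaged 7.94 ± 0.035 in shGLDC99 cells and 8.15 ± 0.065 in shGFP cells (SD, n = 3 each). The 2 groups did not overlap for SOX12, but its difference of -0.21 was not past the threshold (95% interval -0.37 to -0.06, adjusted p = 0.0991). SOX12 passed when the prior variance followed intensity and when genes with a mean below 5 were dropped. With the first, 1350 of all 14779 genes fell, beside 709 in the fit reported here. With the second, 1318 of the 7587 genes kept fell, beside 617. SOX11, outside the list, differed by 0.15 (adjusted p = 0.248).

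SOX5 and SOX6, the SOXD factors that lack an activation domain of their own and pair with each other, moved in opposite directions. SOX5 read 3.33, 3.56 and 3.05 in shGLDC99 arrays, against 4.30, 4.28 and 4.35 in shGFP arrays. The shGFP arrays were nearly alike and the shGLDC99 arrays spread more. SOX5 fell by 0.997 ± 0.13 (SE, adjusted p = 0.00885). SOX6 read 3.01, 3.03 and 3.31 in shGLDC99 arrays, against 2.52, 2.68 and 2.65 in shGFP arrays, and rose by 0.50 ± 0.10 (SE, adjusted p = 0.0330). Both genes are dim, with no evidence of signal above background, which leaves the size of either difference uncertain. SOX13, the remaining SOXD gene, differed by -0.06.

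Of the 18 SOX genes, 2 fell, 1 rose and 15 did not pass the threshold, beside 4.8% of all genes that fell and 3.72% that rose. Among dim genes as a whole 2.79% changed, and 15 of the SOX genes were dim. The pluripotency and neural progenitor factors SOX1, SOX2 and SOX3 were dim, with differences of -0.16, -0.14 and 0.10. The crest and glial factors SOX8, SOX9 and SOX10 were dim as well and differed by 0.09, 0.12 and -0.02. SOX7, an endothelial SOXF factor and besides SOX4 and SOX12 the only SOX gene of the list with a mean of 5 or above, differed by -0.09 (95% interval -0.31 to 0.12). Its relatives SOX17 and SOX18 were dim.

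Among 46 genes whose symbols start with FOX, 8 changed (7 lower and 1 higher), beside 8.52% of all genes and 13.9% of those with a mean of 5 or above. The FOXP genes FOXP1, FOXP2 and FOXP4 fell, and their groups did not overlap, as held for 30.8% of all genes and 46.2% of those with a mean of 5 or above. FOXP factors are repressors that form dimers with each other and act in neuronal differentiation. FOXP4 read 6.85, 6.79 and 6.68 in shGLDC99 arrays, against 7.19, 7.26 and 7.32 in shGFP arrays, and fell by 0.48 ± 0.074 (SE, adjusted p = 0.0136), or 1.40-fold lower. FOXP1 read 6.69, 6.80 and 6.80 in shGLDC99 arrays, against 7.05, 7.20 and 7.05 in shGFP arrays, and fell by 0.34 ± 0.074 (SE, adjusted p = 0.0412). FOXP1 lost the call under renewed quantile normalization (adjusted p = 0.0530) and with all probe sets tested (adjusted p = 0.0688). FOXP2, known for its role in speech and language, read 3.86, 3.79 and 4.21 in shGLDC99 arrays, against 4.68, 4.79 and 5.02 in shGFP arrays. FOXP2 fell by 0.87 ± 0.14 (SE, adjusted p = 0.0154), and in the shGLDC99 arrays it is not shown to exceed background. FOXP3, the factor of regulatory T cells, was dim and differed by -0.08 (adjusted p = 0.672).

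FOXN3 and FOXN4 also fell. FOXN3, a checkpoint-associated repressor whose promoter is given above, read 6.69, 6.59 and 6.68 in shGLDC99 arrays, against 7.02, 7.10 and 7.09 in shGFP arrays. It fell by 0.42 ± 0.063 (SE, adjusted p = 0.0135), or 1.34-fold lower, with little spread inside either group. FOXN4, which directs progenitors of the retina and spinal cord, read 6.13, 6.11 and 5.95 in shGLDC99 arrays, against 6.60, 6.69 and 6.48 in shGFP arrays, and fell by 0.53 ± 0.086 (SE, adjusted p = 0.0169). FOXN2, which is close to FOXN3 in sequence, averaged 9.15 ± 0.043 in shGLDC99 cells and 9.03 ± 0.027 in shGFP cells (SD, n = 3 each). All its shGLDC99 arrays were above all its shGFP arrays, but the difference of 0.12 was not past the threshold (95% interval -0.03 to 0.26, adjusted p = 0.293).

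FOXA1, a pioneer factor that opens chromatin in endoderm and hormone-responsive tissues, fell. It read 5.71, 5.67 and 5.98 in shGLDC99 arrays, against 6.22, 6.31 and 6.37 in shGFP arrays. Array c of shGLDC99 was the nearest to the shGFP arrays, and the difference was -0.51 ± 0.10 (SE, adjusted p = 0.0283). FOXA2, its closest relative, averaged 5.22 in both groups (95% interval of the difference -0.24 to 0.24). FOXA3 was dim and differed by 0.11. FOXL2, a factor of the ovary, was dim and fell by 0.37 ± 0.086 (SE, adjusted p = 0.0493), close to the threshold.

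FOXD4 was the only brighter factor that rose in the fit reported here. It read 7.56, 7.54 and 7.73 in shGLDC99 arrays, against 7.27, 7.22 and 7.27 in shGFP arrays, a rise of 0.35 ± 0.074 (SE, adjusted p = 0.0352). With each array centred on its median FOXD4 lost the call. The FOXD4-like genes are near-identical copies, so probes may read more than 1 of them and the assignment to FOXD4 is uncertain. FOXD4L6 differed by 0.27 (adjusted p = 0.0861), and its second probe set by 0.52. FOXD4L6 rose when its probe sets were averaged and when genes with a mean below 5 were dropped, so FOXD4 was not the only brighter riser there. With dim genes dropped 993 of the 7587 genes kept rose, beside 441 of them in the fit reported here. FOXD4L1 differed by 0.16 (adjusted p = 0.466) and the dim FOXD4L5 by -0.01.

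The 3 factors nearest to the threshold without passing it were all forkhead genes, each with lower shGLDC99 arrays that did not overlap the shGFP arrays. Groups did not overlap for 46.2% of all genes with a mean of 5 or above. FOXM1, which drives transcription of mitotic genes, read 7.53, 7.57 and 7.49 in shGLDC99 arrays, against 7.77, 7.78 and 7.78 in shGFP arrays. Its difference was -0.25 (95% interval -0.39 to -0.11, adjusted p = 0.0517). FOXK2, a factor of metabolism and autophagy genes, differed by -0.32 (adjusted p = 0.0580), and FOXJ2 by -0.31 (adjusted p = 0.0588). All 3 passed when the prior variance could vary with intensity, and also when genes with a mean below 5 were dropped before fitting. Over all genes 1350 fell with that variance trend, beside 709 in the fit reported here. Of the 7587 genes kept by the filter 1318 fell, beside 617 of them in the fit reported here. FOXK1 differed by -0.14 (adjusted p = 0.272) and FOXJ3 by -0.01 (adjusted p = 0.912).

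FOXO factors are restrained by insulin signalling through AKT and switch on stress resistance and atrophy genes. FOXO3 read 6.18, 6.26 and 5.77 in shGLDC99 arrays, against 5.77, 5.92 and 5.66 in shGFP arrays. Array c of shGLDC99 lay inside the shGFP range, and the difference of 0.29 was not past the threshold (95% interval -0.05 to 0.63, adjusted p = 0.284). FOXO1 and FOXO4 were dim, with differences of 0.10 and -0.18. Of 16 measured FOXO targets 1 rose and 0 fell, near the 8.52% of all genes that changed. SESN3, a sestrin that restrains mTORC1, read 9.34 in shGLDC99 cells and 8.83 in shGFP cells (difference 0.52 ± 0.062 SE, adjusted p = 0.00774). The list's median difference was -0.01, the same as over all genes. TXNIP, a thioredoxin-binding protein, differed by -0.32 and was not past the threshold (adjusted p = 0.0504). With a variance trend, or with genes below a mean of 5 left out, 2 of the list rose and 2 fell. Over all genes 1088 rose and 1350 fell with that trend, beside 550 and 709 in the fit reported here. Of the 7587 genes kept by the filter 993 rose and 1318 fell, beside 441 and 617. Of 11 measured regulators and partners of forkhead factors 0 rose and 2 fell. Over all genes 4.8% fell, and 8.13% of those with a mean of 5 or above. The 2 were the deacetylase SIRT1, by 0.70 (adjusted p = 0.0103), and the mitotic kinase PLK1, by 0.35 (adjusted p = 0.0222). PLK1 is also a listed FOXM1 target and is counted again among the 7 of those that fell. With each array dropped in turn, 1 of these regulators and partners fell, beside 238 to 327 of all 14779 genes.

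All 14 measured targets of FOXM1 were lower, and of them 7 fell and 0 rose. None of the 14 was dim. Among all genes with a mean of 5 or above 3978 of 7587 were lower and 8.13% fell, and over all genes 4.8% fell. The DNA topoisomerase TOP2A fell by 0.46 (adjusted p = 0.00931), the cytokinesis kinesin KIF20A by 0.53 (adjusted p = 0.00975), the centrosome kinase NEK2 by 0.45 (adjusted p = 0.0102) and CKS1B, a CDK-binding subunit, by 0.49 (adjusted p = 0.0112). The median was -0.32, beside -0.01 over all genes. With each array dropped in turn, 238 to 327 of all 14779 genes fell, and 4 of the FOXM1 targets did. These genes are also cell cycle genes, whose lower level in shGLDC99 cells was known when the list was written, so the count is not independent evidence about FOXM1.

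Among POU factors, which combine a POU-specific domain with a homeodomain, POU3F2 fell. Of 15 genes with a POU symbol it was the 1 that changed, beside 8.52% of all genes and 13.9% of those with a mean of 5 or above. POU3F2, also called BRN2, is a neural factor whose promoter is shown above. It read 5.36, 5.36 and 5.28 in shGLDC99 arrays, against 5.71, 5.73 and 5.70 in shGFP arrays, so both groups were tight. It fell by 0.38 ± 0.061 (SE, adjusted p = 0.0154), or 1.30-fold lower. POU3F1 averaged 6.75 ± 0.059 in shGLDC99 cells and 6.89 ± 0.065 in shGFP cells (SD, n = 3 each), a difference of -0.14 (adjusted p = 0.280). POU4F1, or BRN3A, a factor of sensory neurons, read 6.51, 6.51 and 6.21 in shGLDC99 arrays, against 6.56, 6.70 and 6.77 in shGFP arrays. Array c of shGLDC99 was lowest, and the difference of -0.27 was not past the threshold (adjusted p = 0.186). POU6F1 differed by 0.11 and overlapped. The other 11 genes with a POU symbol were dim and not past the threshold, among them the pluripotency factor POU5F1 (-0.18).

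No LIM homeodomain gene of the LHX family changed, but several of their relatives and cofactors did. LHX factors specify neuronal subtypes and work in complexes held together by LDB proteins. Of 8 LHX genes 7 were lower, beside 7630 of all 14779 genes, and none was past the threshold. Of the 8, 4 were dim. At an unadjusted p under 0.05 there were 2, LHX1 and LHX4, both dim, beside 3599 of 14779 genes at that p. LHX1 passed the adjusted threshold when shGFP array a was left out. LHX2 read 5.24, 5.76 and 5.28 in shGLDC99 arrays, against 5.70, 5.95 and 5.69 in shGFP arrays. Array b of shGLDC99 lay among the shGFP values, and the difference of -0.35 had a 95% interval of -0.72 to 0.02 (adjusted p = 0.225). Its second, dim probe set differed by -0.15. LHX6, a factor of cortical interneurons, differed by -0.15 (adjusted p = 0.252), LHX3, of motor neurons, by -0.04 (95% interval -0.26 to 0.19) and LHX8 by 0.03 (95% interval -0.19 to 0.26).

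Of 11 measured LIM relatives and cofactors 6 fell and 0 rose. Over all genes 4.8% fell, and 8.13% of those with a mean of 5 or above. The list median was -0.44, beside -0.01 over all genes. ISL1, the LIM factor of sympathetic and motor neurons, averaged 6.31 in shGLDC99 cells and 7.40 in shGFP cells and fell by 1.09 (adjusted p = 0.00412). When its 2 probe sets were averaged the fall was 0.71. SSBP2, which stabilises LDB complexes, fell by 0.78 (adjusted p = 0.00412), the LIM-only protein LMO3 by 0.99 (adjusted p = 0.00751) and the scaffold LDB2 by 0.48 (adjusted p = 0.0167). LMO4 (-0.68) and ISL2 (-0.44), named after their values were seen to complete the count, fell as well. LDB1, the ubiquitous scaffold, differed by -0.07 (adjusted p = 0.541). With each array dropped in turn, 3 to 5 of the list fell and 0 rose. Over all 14779 genes 238 to 327 fell and 207 to 240 rose in those fits. The falls of ISL1 and LMO3 were known when the list was written.

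DLX genes encode homeodomain factors of forebrain interneurons and skeletal elements and lie in neighbouring pairs. DLX5, which was dim, read 4.29, 4.43 and 4.34 in shGLDC99 arrays, against 5.02, 5.04 and 4.75 in shGFP arrays, and fell by 0.58 ± 0.098 (SE, adjusted p = 0.0184). Its shGLDC99 level is not shown to exceed background. Of 6 DLX genes it was the 1 that changed, beside 8.52% of all genes and 2.79% of all dim genes. DLX6, the neighbour of DLX5, averaged 7.04 ± 0.018 in shGLDC99 cells and 7.05 ± 0.098 in shGFP cells (SD, n = 3 each), with a difference of -0.01 (95% interval -0.18 to 0.16). DLX1 and DLX2, another pair, differed by -0.02 (95% interval -0.18 to 0.13) and -0.03 (95% interval -0.28 to 0.22). DLX3 and DLX4, a further pair, were dim and differed by 0.31 (adjusted p = 0.125) and -0.03 (adjusted p = 0.915).

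The sympathetic factor HAND2 stayed within a narrow range. It read 8.09, 8.06 and 8.05 in shGLDC99 arrays, against 7.98, 8.003 and 7.97 in shGFP arrays. All shGLDC99 arrays were slightly higher, but the difference of 0.08 was not past the threshold, and its 95% interval of -0.06 to 0.22 leaves out changes of the size seen for SOX4 (adjusted p = 0.455). HAND1 was dim and differed by 0.06. Of 14 measured adrenergic partners of HAND2, 3 rose and 5 fell, beside 3.72% of all genes that rose and 4.8% that fell. Among all genes with a mean of 5 or above 5.81% rose and 8.13% fell. Their median was -0.17, beside -0.01 over all genes. Besides ISL1, GATA2 fell by 0.56 (adjusted p = 0.0122), the T-box factor TBX2 by 0.60 (adjusted p = 0.0136) and the chromatin organiser SATB1 by 0.50 (adjusted p = 0.0149). GATA3, named after its value was seen, fell by 0.48, and KLF7 (0.35), EYA1 (0.29) and INSM1 (0.26), named likewise, rose. With each array dropped in turn, 1 to 4 genes of this list fell and 0 rose. Over all 14779 genes 238 to 327 fell and 207 to 240 rose in those fits.

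The 9 measured proneural genes of the ASCL, NEUROD and NEUROG families were all dim, and none passed the threshold. At an unadjusted p under 0.05 there was 1, ASCL2, a factor of intestinal stem cells, beside 3599 of all 14779 genes at that p. ASCL2 differed by -0.30 (adjusted p = 0.173), NEUROD2, of cortical neurons, by -0.25 (adjusted p = 0.307), and NEUROG3, of pancreatic endocrine precursors, by 0.29 (adjusted p = 0.389). Of 19 measured partners and inhibitors of helix-loop-helix factors 10 were dim, and the median level of the list was 4.86. Of the 19, 2 rose and 1 fell. Over all genes 8.52% changed, beside 13.9% of those with a mean of 5 or above and 2.79% of dim genes. MYT1 and MYT1L, zinc finger proteins that act beside proneural factors in neurogenesis, rose by 0.42 (adjusted p = 0.0138) and 0.35 (adjusted p = 0.0184), and the E protein TCF3 fell by 0.34 (adjusted p = 0.0332). The E proteins TCF4 and TCF12 were not past the threshold. Of 14 measured proneural targets 2 rose, the dim Notch ligand DLL4 by 0.52 (adjusted p = 0.0245) and INSM1, and 0 fell, beside 3.72% of all genes that rose and 4.8% that fell. With each array dropped in turn, 0 or 1 helix-loop-helix partner rose and 0 fell. Of the proneural targets 0 or 1 rose and 0 or 1 fell. Over all 14779 genes 207 to 240 rose and 238 to 327 fell in those fits.

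PAX factors, which carry a paired domain, did not pass the threshold. PAX5, best known from B cells, was the 1 PAX gene with a mean of 5 or above. It read 6.91, 6.94 and 6.85 in shGLDC99 arrays, against 7.08, 7.03 and 7.19 in shGFP arrays, without overlap. Its difference was -0.20 (95% interval -0.37 to -0.03, adjusted p = 0.145). PAX5 passed when genes with a mean below 5 were dropped before fitting (adjusted p = 0.0423). In that fit 1318 of 7587 genes fell, beside 617 of them in the fit reported here. PAX3, of the neural crest, and PAX6, of eye and forebrain, were dim and differed by 0.08 and 0.22. FOXD3, another crest factor, was dim and differed by 0.06. Of 13 measured neural crest factors beyond these, 0 rose and 1 fell, the zinc finger factor ZIC1, by 0.37 (adjusted p = 0.0218), near the 8.52% of all genes that changed. With each array dropped in turn, 0 genes of this list fell and 0 or 1 rose. Over all 14779 genes 238 to 327 fell and 207 to 240 rose in those fits.

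**Figure D3:**
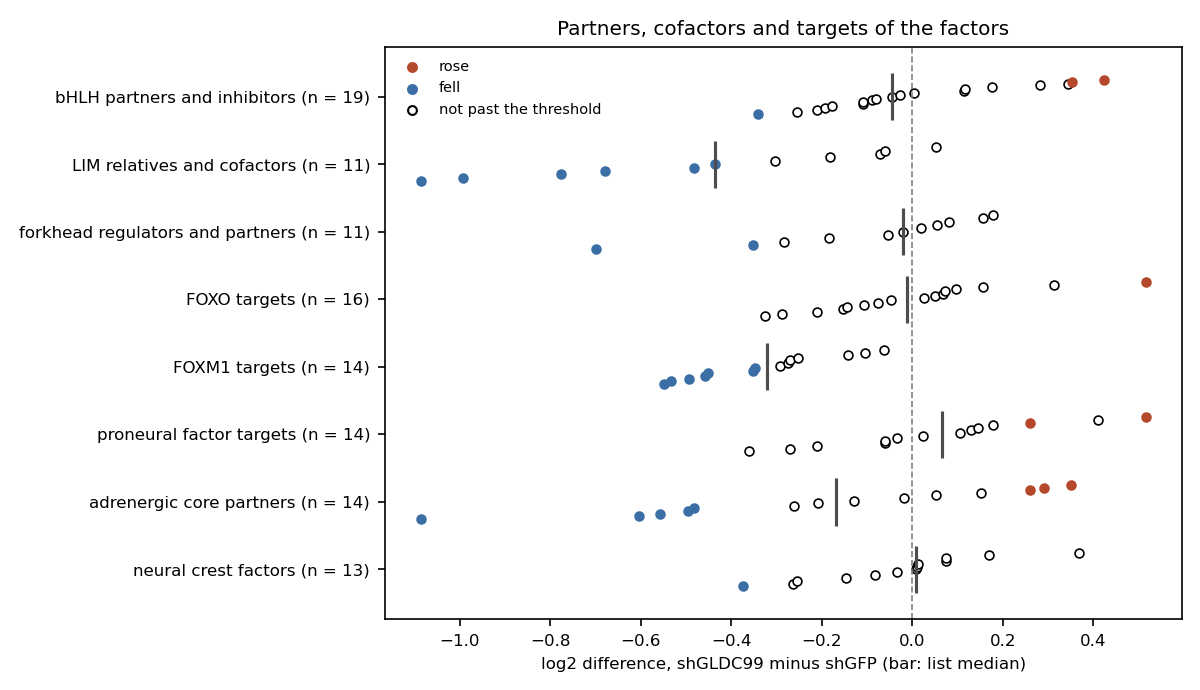
Log2 difference (shGLDC99 minus shGFP, x axis) of each measured gene of the 8 lists of partners, cofactors and targets, 1 row per list, with a vertical bar at the list median and filled points for genes past the threshold. The LIM relatives and cofactors (median -0.44) and the FOXM1 targets (median -0.32) lie farthest to the left.

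The boundary between dim and brighter genes was an intensity of 5. DLX2 (5.02) and FOXH1 (5.11) lay just above it, and FOXP3 (4.75 in shGLDC99 cells and 4.84 in shGFP cells) and SOX9 (4.74), added to show the other side, lay just below. With the boundary at 4.5 there were 44 brighter genes, and at 6 there were 24. Among the dim genes the differences ran from -0.997 (SOX5) to 0.50 (SOX6), with a median of -0.06.

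The direction of all 13 changed genes held under every processing tried, while the calls did not. Most of the alternatives could not reverse a direction. Under the block, variance trend, filter, stricter threshold, averaged probe sets and all probe sets, each fitted difference stayed identical. Leaving out or weighting arrays cannot reverse groups that do not overlap, as held for all 13. Only renewed quantile normalization and centring could have done so. SOX5 passed the threshold under all 14 alternatives in which it was fitted. Of 15 alternatives each, FOXP4 passed under 11, FOXN3 under 10, FOXN4 under 9, and SOX4, POU3F2 and FOXA1 under 8. FOXD4 and FOXP1 passed under 5 of 15. Among the dim genes fitted under 14 alternatives, FOXP2 passed under 9, DLX5 under 8, SOX6 under 5 and FOXL2 under 3.

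**Figure D4:**
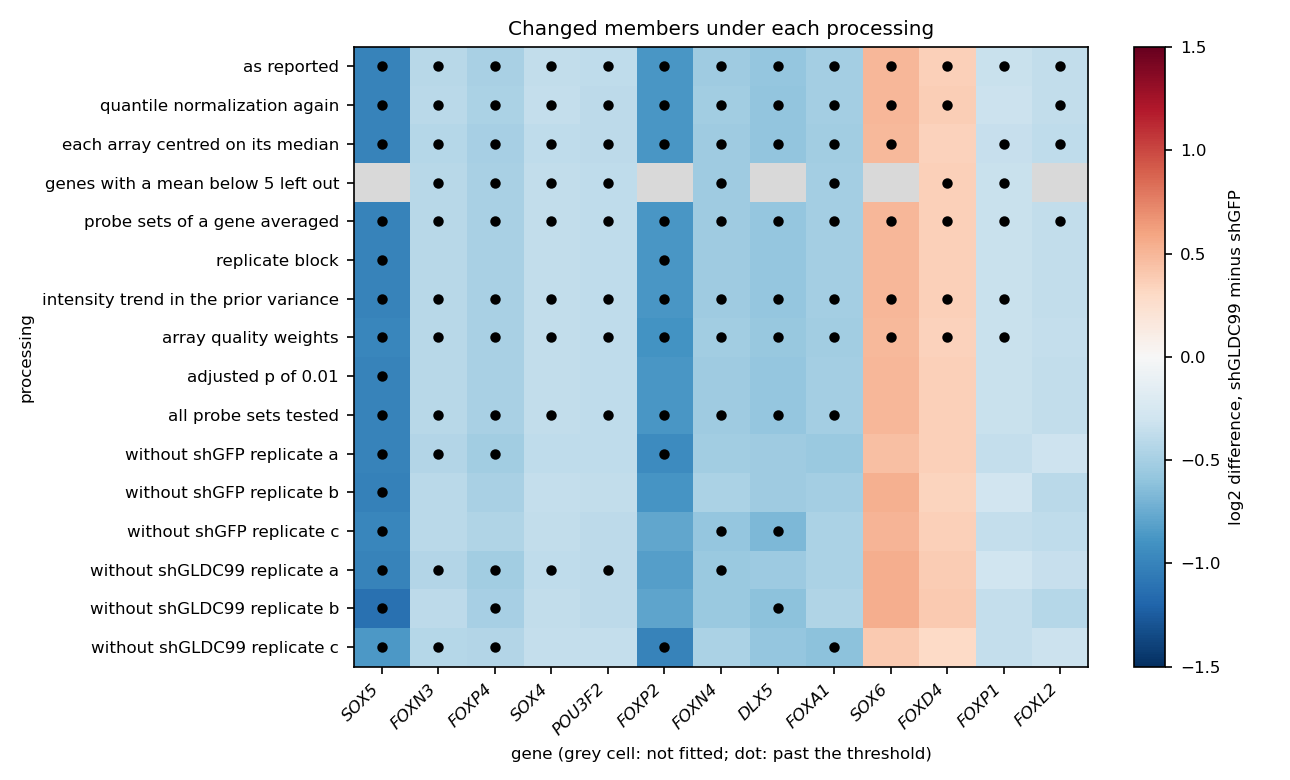
The 13 changed factors (columns, by adjusted p) under each processing (rows), coloured by log2 difference, shGLDC99 minus shGFP, with a dot where the gene passed the threshold and grey where it was not fitted. Colours keep their sign down every column, which most of the processings could not change, while dots thin out where an array is left out.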

How the data were processed

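RNA of 6 samples was hybridised to 6 Human Gene 2.0 ST arrays (Affymetrix). The deposited values, 1 per probe set and array, were read as log2 intensity. The base of the log was inferred: values reach 13.28, while a natural log of a 16-bit intensity ends at 11.09. The authors used Partek, per the submitters' processing notes. How background, normalization and probe sets were handled is not given in the sources used here. Medians of the arrays were 4.28 to 4.33, and no further normalization was applied.

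Of 31135 probe sets 15098 had 1 gene symbol, 0 several and 16037 none, and all named ones matched the reference table by Entrez ID. They covered 14779 genes, each represented by its brightest probe set. Differences, shGLDC99 minus shGFP, were tested by lmFit and eBayes without covariates (R 4.3.3, limma 3.58.1), with Benjamini-Hochberg adjustment over all genes. The model was checked on simulated data. Tables were handled in data.table (1.17.8), pandas (2.3.3) and numpy (2.4.6), and figures drawn in matplotlib (3.10.9). The number of arrays limits the precision.

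Genes were taken by symbol, and the 11 matching antisense, overlapping or pseudogene symbols were left out. Named genes were those that changed, the member with the highest mean in each family, the 3 nearest to the threshold, up to 4 changed genes of each of 8 lists, and members with a mean of 4.8 to 5.2. Other genes named beside them were picked with their values in view. The members and lists were chosen with earlier results of these data known. Alternatives were another normalization, centring, a filter, averaged probe sets, the replicate letter as a block, a variance trend, array weights, an adjusted p of 0.01, all probe sets, and each array left out.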

Additional observations from a re-analysis of the deposited data

How the results depend on the processing

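The replicate letters share only a letter: deviations of same-lettered arrays from their group means correlated at -0.01, 0.02 and -0.001. With the letter as a replicate block, 2 of the 112 listed genes fell (SOX5 and FOXP2) and 0 rose, 0 of the 37 brighter ones changed, 103 genes rose and 126 fell over all genes, and 5 partner genes fell and 0 rose. At an adjusted p of 0.01, 1 listed gene fell (SOX5) and 0 rose, 0 brighter ones changed, 118 genes rose and 157 fell, and 1 partner gene rose and 5 fell. When the prior variance followed a trend with intensity, 11 brighter listed genes fell, 1088 genes rose, 1350 fell and 31 partner genes fell. With genes of a mean below 5 left out, 2 brighter listed genes rose and 12 fell, and 993 genes rose and 1318 fell. Averaged probe sets gave 2 brighter rises, centring each array left 1 rise among all listed genes and 0 among the brighter ones, and testing all probe sets left 0 and 0 rises and 361 rises over all genes. Leaving out 1 array at a time left 1 to 6 falls and 0 rises among the listed genes, 0 to 5 falls and 0 rises among the brighter ones, 207 to 240 rises and 238 to 327 falls over all genes, and 1 to 2 rises and 8 to 12 falls among partner genes, with fewer samples in each fit. In the fits as reported, 2 listed genes rose and 11 fell (1 and 7 of the brighter), 550 genes rose and 709 fell, and 7 partner genes rose and 20 fell. The cause of the shifts under the block, trend, centring and filter was not tested. Renewed quantile normalization and array weights kept every one of these counts within 1.5 times, as did a dim boundary of 4.5 or 6 for the brighter genes. No changed factor reversed under any alternative, though only renewed quantile normalization and centring could have reversed one. Dim genes are not shown to exceed background, which limits their sizes.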

Other observations

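Of the 11 antisense, overlapping or pseudogene symbols left out of the list, none passed the threshold. HAND2-AS1, the divergent long noncoding neighbour of HAND2, read 7.63, 7.66 and 7.54 in shGLDC99 arrays a, b and c, against 7.55, 7.52 and 7.49 in shGFP arrays a, b and c (difference 0.09, limma adjusted p = 0.471). LHX4-AS1 averaged 7.23 ± 0.12 in shGLDC99 cells and 7.42 ± 0.064 in shGFP cells (SD, n = 3 each), without overlap between the groups and with a difference of -0.19 (limma adjusted p = 0.230). FOXD2-AS1 differed by -0.05 and PAX8-AS1 by -0.07. FOXN3-AS1, from the locus of a factor that fell, was dim and differed by 0.26 (limma adjusted p = 0.406), and SOX2-OT, which overlaps SOX2, was dim and differed by -0.18 (limma adjusted p = 0.173). The POU5F1 pseudogenes POU5F1P3 and POU5F1P4 differed by 0.36 and -0.24 (limma adjusted p = 0.302 and 0.506).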
